A study of Pinellia ternata with 6 samples.

Results

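Of the 62591 unigenes in the table analysed, 4 are named as MYB, MYB related or MYB78 in the text or annotation of the paper on these data. A unigene is a gene as assembled from the reads, since no genome was used here. TRINITY_DN2319_c0_g1 and TRINITY_DN2319_c0_g2 were named MYB, TRINITY_DN14570_c0_g2 was named MYB related, and TRINITY_DN18485_c0_g1 has MYB78 of Arabidopsis as its best protein match. They were selected on these samples, from unigenes whose expression level differed between the lines. Their difference between the lines is therefore given as a description, with no test. The paper names a further MYB unigene, TRINITY_DN567_c0_g2, and a further MYB related unigene, TRINITY_DN3364_c2_g1, which were not analysed here.

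The samples were seedlings of Pinellia ternata, a medicinal aroid, collected 30 days after planting. T2 line is an octoploid (8x, 2n = 104) that derives from a single plant, and T2Plus line (16x, 2n = 208) was made from it by doubling its chromosomes with colchicine. Each line had 3 samples, T2 line was the control, and neither line received another treatment according to the labels. The paper describes the 3 samples of a line as independent biological replicates. RNA was taken from pools of 5 seedlings. The sources do not say whether each sample had a pool of its own, so spread between samples may be technical in part.

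MYB proteins are transcription factors that bind DNA through repeats of the MYB domain. Most plant members carry a pair of repeats and regulate phenylpropanoid metabolism, cell fate, hormone responses and stress responses, while MYB related proteins carry a single or partial repeat and include core proteins of the circadian clock. In Arabidopsis MYB78 and MYB62 belong to the same subgroup of the family, and MYB62 takes part in the response to phosphate starvation.

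The values are called FPKM by the authors, an expression level corrected for transcript length and for sequencing depth, with a TMM factor applied to each sample. Whether RSEM's FPKM or its TPM was taken is not settled by the values. Summed FPKM ranged from 527915 to 626556 per sample. The values themselves hold no read totals, and those stated in the paper were not used. The value of 1 read, compared over weakly expressed isoforms, was 0.737 in replicate 2 of T2 line and 0.940 to 1.13 in the other samples, relative to replicate 1 of T2 line. Replicate 2 of T2 line stood apart, with a median of 1.91 on the log2(FPKM + 1) scale against 2.22 to 2.31 in the other samples. The annotation was held only in part, and in that part green tissue was represented by 27 measured unigenes with a chloroplast protein as best match, of which none was at 0 in every sample and 24 were above 0 in each. They held 0.745% to 0.882% of summed FPKM in T2 line and 0.558% to 0.673% in T2Plus line. In the same part, a set of 43 unigenes whose best match lies outside green plants held 0.151% to 0.156% in T2 line and 0.160% to 0.165% in T2Plus line, and 5 of them were at 0 in every sample.

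All 4 MYB unigenes were expressed in every sample and stood lower in T2Plus line. TRINITY_DN2319_c0_g1 was at 26.0, 25.4 and 29.3 FPKM in replicates 1, 2 and 3 of T2 line and at 10.3, 12.3 and 12.5 FPKM in those of T2Plus line. The lowest T2 value was 2.02 times the highest T2Plus value, so the lines did not overlap. TRINITY_DN2319_c0_g2 was at 27.0, 28.4 and 30.3 FPKM in T2 line and at 11.7, 12.0 and 15.3 FPKM in T2Plus line. Here the lines came closest, with the lowest T2 value at 1.76 times the highest T2Plus value.

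The MYB related unigene TRINITY_DN14570_c0_g2 was at 30.6, 39.0 and 29.3 FPKM in T2 line and at 14.6, 11.6 and 10.5 FPKM in T2Plus line. Replicate 2 of T2 line was its highest sample, and the lowest T2 value was 2.012 times the highest T2Plus value. The MYB78 unigene TRINITY_DN18485_c0_g1 was at 21.3, 30.5 and 24.96 FPKM in T2 line and at 7.53, 6.75 and 9.98 FPKM in T2Plus line. It too was highest in replicate 2 of T2 line, and the lines did not overlap.

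**Figure D1:**
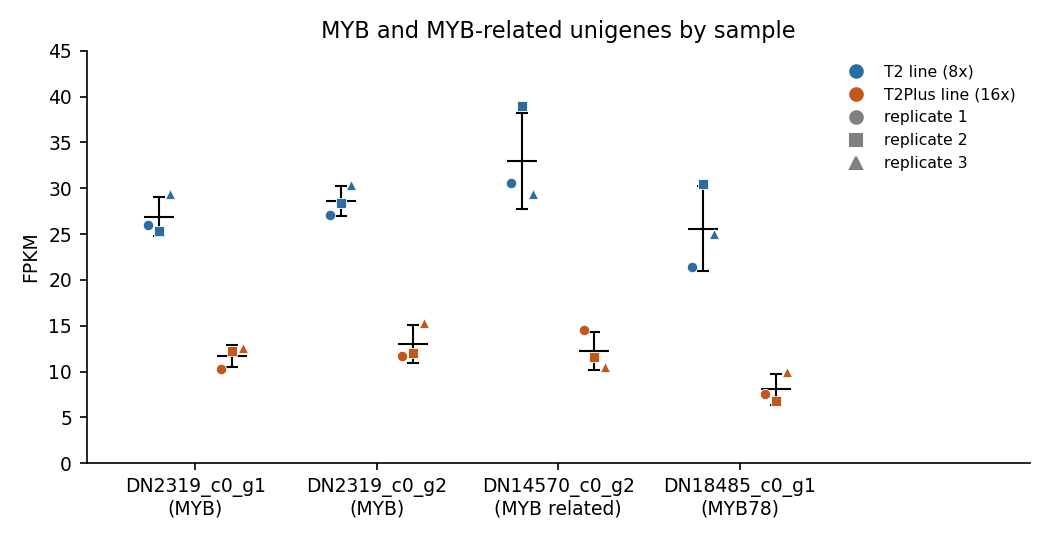
FPKM (y axis) of the 4 MYB unigenes (x axis) in each sample, blue for T2 line and orange for T2Plus line, with marker shapes for replicates 1 to 3 and black bars for the mean and SD (n = 3). Every T2 value lies above every T2Plus value of the same unigene, and the gap is narrowest in TRINITY_DN2319_c0_g2.

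The MYB78 unigene showed the largest difference of the 4, averaging 25.6 ± 4.599 FPKM in T2 line against 8.09 ± 1.69 FPKM in T2Plus line (SD, n = 3), a 3.17-fold lower mean. Its log2 fold change, on the log2(FPKM + 1) scale used throughout, was -1.55 with a standard error of 0.21. The MYB related unigene averaged 33.0 ± 5.23 FPKM in T2 line against 12.2 ± 2.11 FPKM in T2Plus line (SD, n = 3), with a log2 fold change of -1.36 and a standard error of 0.18. The MYB pair had log2 fold changes of -1.14 for TRINITY_DN2319_c0_g1 and -1.09 for TRINITY_DN2319_c0_g2, with standard errors of 0.15 each. The order of the 4 is not firm, since their log2 fold changes span 0.46 and each has a standard error of 0.15 to 0.21. In T2 line the MYB unigenes were above 85.6% to 88.6% of the 28536 unigenes that reached 1 FPKM in 3 or more of the 6 samples. In T2Plus line they were above 68.4% to 77.2% of them.

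Across all 28536 unigenes compared with limma, 6.30% were down-regulated in T2Plus line and 7.22% were up-regulated, which asked for a 2-fold difference and an adjusted p no higher than 0.05. Every T2Plus sample lay below every T2 sample in 16.4% of these unigenes. By the same rules 4 of the 4 MYB unigenes were down-regulated and 4 of 4 did not overlap. Their selection on this contrast favoured both outcomes in advance, so these counts are not independent evidence. Summed over the 4 unigenes, FPKM was 105, 123 and 114 in T2 line and 44.0, 42.6 and 48.3 in T2Plus line. In seedling RNA, fewer cells of a type and less RNA per cell cannot be told apart. FPKM is also relative to all the RNA sequenced from a sample, and the other scalings used here share this limit. The lines differ in ploidy, and total RNA per cell was not measured in either. Whether the MYB unigenes had fewer transcripts per cell in T2Plus line was therefore not tested. The summed share of the chloroplast proteins was lower in each T2Plus sample as well, but their unigenes did not all fall. Of the 25 compared, 4 were down-regulated and 21 were not called. Their log2 fold changes had a median of -0.28 and ran from -2.02 to 1.65. The part of this share in the difference of the MYB unigenes was not tested.

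The sister unigenes of cluster DN2319_c0, which the assembler grouped as related sequences, were expressed at nearly equal levels in both lines. The ratio of TRINITY_DN2319_c0_g1 to TRINITY_DN2319_c0_g2 was 0.961, 0.892 and 0.968 in T2 line and 0.879, 1.03 and 0.818 in T2Plus line. These ranges overlapped, and the log2 ratio was -0.09 ± 0.06 in T2 line and -0.14 ± 0.15 in T2Plus line (SD, n = 3). The difference of -0.05 was not larger than the spread between samples (exact two-sided permutation test, p = 0.6, where 3 samples against 3 allow no p below 0.1). Both unigenes were selected as lower in T2Plus line, which favours a small difference. The test is therefore not independent evidence that the pair changed alike. The sign of the difference rested on replicate 3 of T2Plus line, without which the difference was 0.02. In 460 clusters with a pair of unigenes at 1 FPKM or more in every sample, log2 fold changes within a pair differed by a median of 0.59 (quartiles 0.31 and 1.12). Both unigenes were down-regulated in 8 of these pairs. The 460 pairs as a whole were not selected on the contrast, so the DN2319_c0 pair is not set against its like. The ratio within a pair did not overlap between the lines in 45.7% of them, whereas that of the DN2319_c0 pair did. Whether the pair are separate genes or versions of a gene assembled apart was not tested, and reads that match both could have been divided between them.

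The pair differed in how many isoforms were listed. TRINITY_DN2319_c0_g1 had 2 isoforms, i2 and i4, and the other MYB unigenes had 1 each. Isoform i4 was at 18.0, 16.6 and 18.6 FPKM in T2 line and at 5.18, 6.90 and 6.61 FPKM in T2Plus line, a 2.84-fold lower mean. Isoform i2 was at 8.01, 8.79 and 10.7 FPKM in T2 line and at 5.08, 5.38 and 5.92 FPKM in T2Plus line, a 1.68-fold lower mean. Both isoforms were thus lower in T2Plus line, i4 by more than i2.

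Isoform i4 held 69.2%, 65.3% and 63.4% of the unigene value in T2 line and 50.5%, 56.2% and 52.8% in T2Plus line. The lines did not overlap, and the mean share fell by 12.8 percentage points in T2Plus line, from 66.0% ± 2.94 to 53.2% ± 2.85 (SD, n = 3). An exact permutation test gave a two-sided p of 0.1, which is the smallest that 3 samples against 3 allow. Only this MYB unigene could be tested, so no adjustment was made. The share of the leading isoform did not overlap between the lines in 27.3% of 1250 unigenes with at least 2 isoforms and 1 FPKM in every sample, and its absolute change had a median of 8.3 and an upper quartile of 17.8 percentage points. The change of i4 lay between these values. RSEM divides reads that match several isoforms by estimation, and isoforms outside the table were not analysed here.

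**Figure D2:**
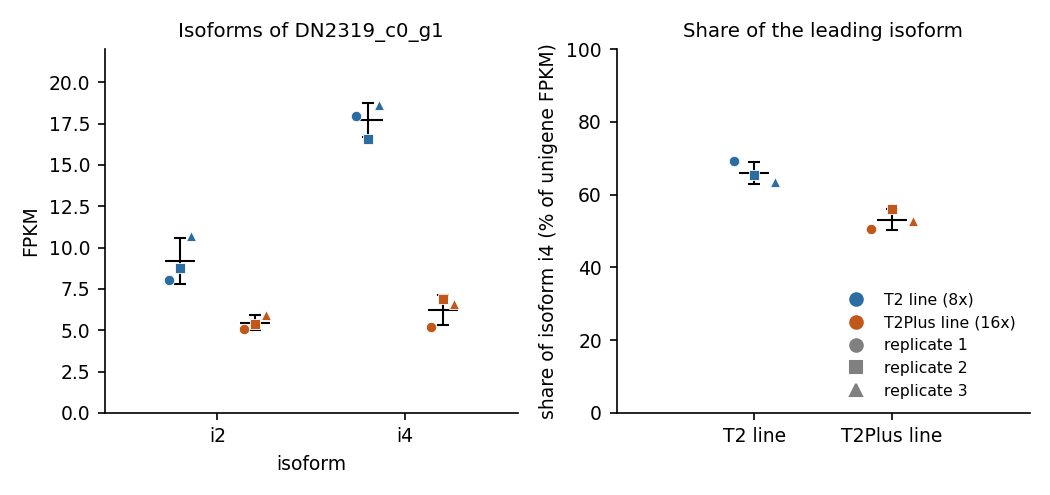
Left, FPKM (y axis) of isoforms i2 and i4 of TRINITY_DN2319_c0_g1 in each sample; right, the percentage of the unigene's FPKM held by i4 (y axis) in each line (x axis), with the mean and SD (n = 3) as black bars. Isoform i4 holds 63.4% to 69.2% in T2 line and 50.5% to 56.2% in T2Plus line.

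The MYB related unigene has a sister in its cluster that was not lower in T2Plus line. TRINITY_DN14570_c0_g1 was at 62.4, 72.9 and 68.3 FPKM in T2 line and at 90.4, 81.8 and 90.2 FPKM in T2Plus line. All T2Plus values exceeded all T2 values, but the difference did not pass the test (limma, adjusted p = 0.0577 over all unigenes, with a log2 fold change of 0.36 and a standard error of 0.10). Over the alternatives its adjusted p ranged from 0.00816 to 0.272 and its log2 fold change from 0.30 to 0.55, always under 2-fold. The ratio of TRINITY_DN14570_c0_g2 to this sister was 0.491, 0.535 and 0.429 in T2 line and 0.161, 0.142 and 0.116 in T2Plus line. A ratio within a sample does not depend on how samples are scaled, and its mean was 3.47 times higher in T2 line. The sister carries no protein name in the sources used here.

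The MYB78 unigene shares its cluster with TRINITY_DN18485_c0_g3, whose best match is MYB62 of Arabidopsis. The MYB62 unigene was at 5.44, 5.34 and 6.52 FPKM in T2 line and at 6.72, 7.91 and 5.33 FPKM in T2Plus line. The lines overlapped, and no difference passed the test (limma, adjusted p = 0.694, with a log2 fold change of 0.17 and a standard error of 0.24). In T2 line the MYB78 unigene was at 3.92, 5.71 and 3.83 times the FPKM of the MYB62 unigene. In T2Plus line it was at 1.12, 0.853 and 1.87 times. The predominance of the MYB78 unigene seen in T2 line was thus weaker in every T2Plus sample, slight in replicate 1 and absent in replicate 2. The protein match of the MYB78 unigene covers a part of the protein only, as the annotation lists it.

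Other unigenes with the number DN2319 belong to other clusters. TRINITY_DN2319_c2_g1 was at 4.08, 4.78 and 5.46 FPKM in T2 line and at 3.12, 1.41 and 3.19 FPKM in T2Plus line (limma, adjusted p = 0.235, with a log2 fold change of -0.73 and a standard error of 0.36). TRINITY_DN2319_c4_g1 was listed at 0 in replicate 1 of both lines, at 24.4 and 12.4 FPKM in the other T2 samples and at 6.29 and 6.61 FPKM in the other T2Plus samples. Neither passed the test, and the second had no steady direction when single samples were left out.

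**Figure D3:**
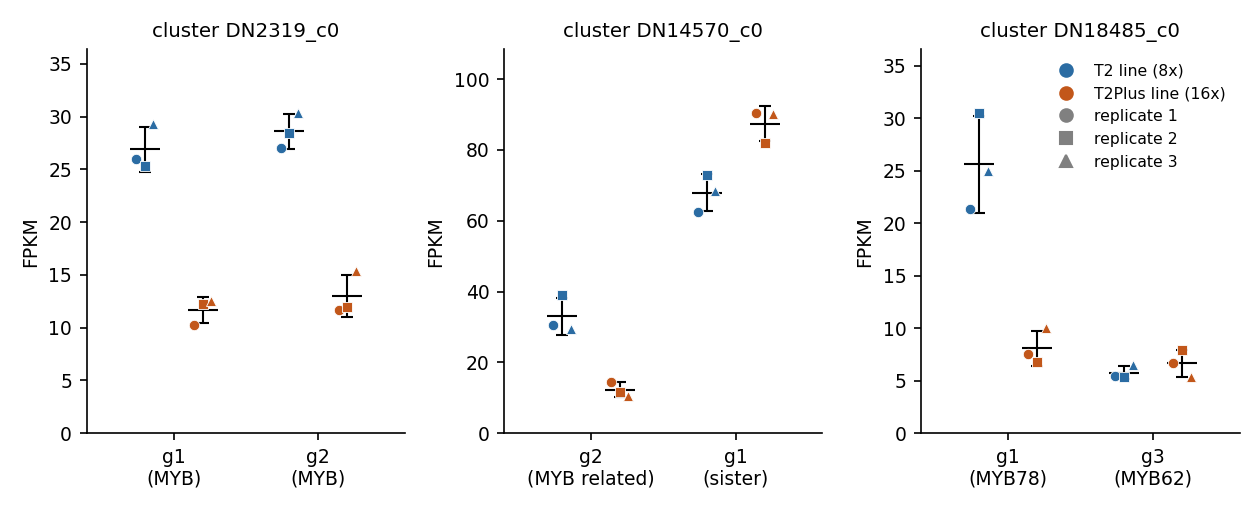
FPKM (y axis) of each MYB unigene and of the sister unigene in its cluster (x axis) in every sample, with the mean and SD (n = 3) as black bars; the y axis differs between panels. Both unigenes of DN2319_c0 are lower in T2Plus line, while in DN14570_c0 the sister g1 is at 62.4 to 72.9 FPKM in T2 line and 81.8 to 90.4 FPKM in T2Plus line, and in DN18485_c0 the MYB62 unigene g3 overlaps between the lines.

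The lower level of the 4 unigenes in T2Plus line was also read under other scalings. Summed FPKM was 1.10 times higher in T2 line on average, and 1.19 times between the most distant samples, so that scaling alone can shift a ratio between lines by that much. The sums cover only the isoforms analysed, a part of the assembly, and are not library totals. After rescaling each sample to sum to 1000000, the log2 fold changes of TRINITY_DN2319_c0_g1, TRINITY_DN2319_c0_g2, TRINITY_DN14570_c0_g2 and TRINITY_DN18485_c0_g1 were -1.04, -0.98, -1.26 and -1.47. That scaling moved the median of all unigenes by 0.13, from 0.10 to 0.23. Relative to the median, the log2 fold changes were -1.24, -1.19, -1.46 and -1.65 in the values as deposited and -1.26, -1.21, -1.49 and -1.70 after rescaling. Not set against the median, the log2 fold changes were -1.05, -0.99, -1.26 and -1.5 with quantile normalization and -1.08, -1.03, -1.30 and -1.5 with a common upper quartile. Relative to the median they were -1.08, -1.02, -1.29 and -1.53 with quantile normalization and -1.23, -1.18, -1.45 and -1.64 with a common upper quartile. TRINITY_DN2319_c0_g2 thus missed the 2-fold threshold under rescaling to a common sum and under quantile normalization, which left 3 of the 4 down-regulated, while relative to the median it stayed past 2-fold in both.

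No single sample carried the difference. With each of the 6 samples left out in turn, the log2 fold change of TRINITY_DN2319_c0_g1 lay between -1.19 and -1.05 and that of TRINITY_DN2319_c0_g2 between -1.20 and -1.02. That of TRINITY_DN14570_c0_g2 lay between -1.48 and -1.24 and that of TRINITY_DN18485_c0_g1 between -1.70 and -1.42. The weakest values of the last pair were those without replicate 2 of T2 line, the library that stood apart, at -1.24 and -1.42. Without that library the MYB pair stood at -1.18 and -1.09. The largest shift came from counting only the highest isoform of TRINITY_DN2319_c0_g1, which gave -1.38 in place of -1.14.

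**Figure D4:**
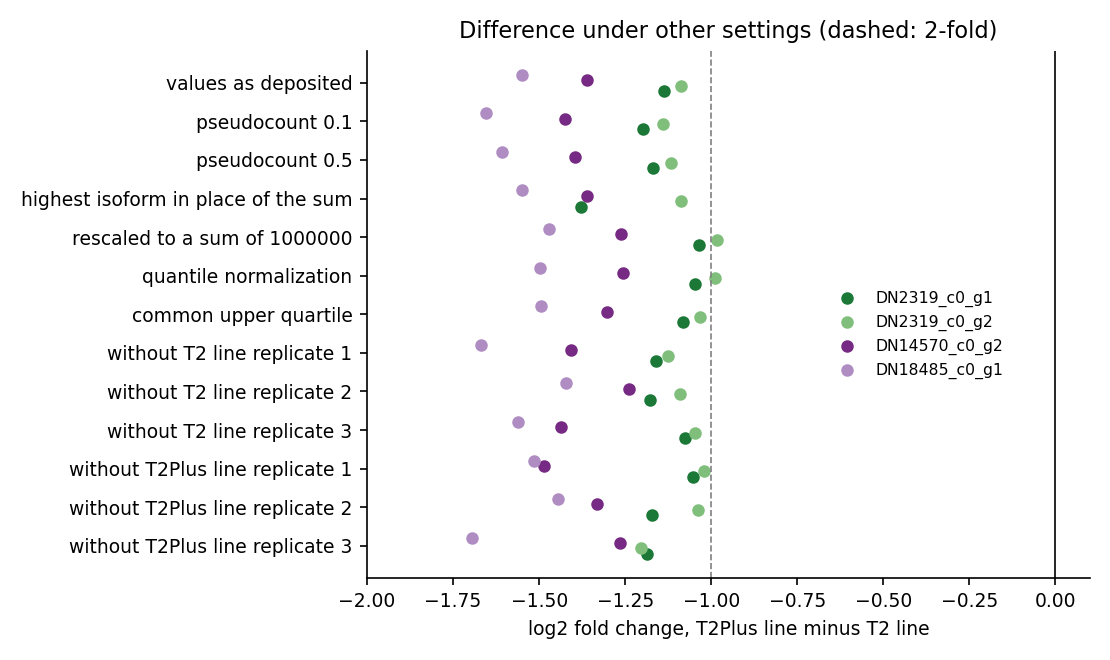
Log2 fold change of each MYB unigene between the lines (x axis) under the settings named on the y axis, with colours for the unigenes, a dashed line at the 2-fold threshold and a solid line at no difference. All values lie left of no difference, and TRINITY_DN2319_c0_g2 crosses the dashed line at -0.98 and -0.99 under rescaling to a common sum and quantile normalization.

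In the part of the annotation held here, 7 unigenes apart from the MYB78 unigene carry a Myb domain or a Myb name, whatever their expression, so the list is not a full count of the family. The table analysed held 4 of them, and none was down-regulated or up-regulated (limma), against 6.30% and 7.22% of all unigenes. The MYB78 unigene, left out of this list, was down-regulated with a log2 fold change of -1.55. This count and the median below therefore hold only for the list without it. The unadjusted p was under 0.05 for 1 of the 4, TRINITY_DN4810_c0_g1, and the median log2 fold change of the 4 was 0.45 beside 0.10 over all unigenes. TRINITY_DN4810_c0_g1, matched to single myb histone 3, a telomere DNA binding protein of maize, was at 13.8, 12.4 and 11.3 FPKM in T2 line and at 25.9, 19.2 and 19.5 FPKM in T2Plus line. The lines did not overlap, and its adjusted p was 0.0348 from limma, but its log2 fold change of 0.73 (standard error 0.18) was under the threshold. Its adjusted p ranged from 0.0228 to 0.101 over the alternatives.

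TRINITY_DN4810_c1_g1, matched to single myb histone 5, was at 6.51, 2.67 and 4.84 FPKM in T2 line and at 8.27, 9.07 and 7.56 FPKM in T2Plus line (limma, adjusted p = 0.168, with a log2 fold change of 0.77 and a standard error of 0.32). TRINITY_DN11444_c0_g1, matched to PHR1-LIKE 2, a regulator of phosphate starvation genes in Arabidopsis, was at 25.6, 35.4 and 22.5 FPKM in T2 line and at 25.8, 22.5 and 25.7 FPKM in T2Plus line (log2 fold change -0.15, adjusted p = 0.652 from limma). The MYB62 unigene was the fourth of the list. The matches to CCA1, ARR2 and the Myb family protein At1g14600 were not analysed here.

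The paper's enrichment lists place TRINITY_DN2319_c0_g1, TRINITY_DN2319_c0_g2 and TRINITY_DN14570_c0_g2 together under response to gibberellin, a hormone of stem growth and germination. Of its 13 unigenes 12 were measured, 10 down-regulated and 2 up-regulated. The study drew the list from unigenes it called on these samples, so the count is not independent evidence of a direction. The largest rise was in TRINITY_DN14487_c1_g1, from 2.46 ± 0.883 to 15.1 ± 0.776 FPKM (SD, n = 3; log2 fold change 2.24), given with no p since it was picked on the same contrast. The largest fall was in TRINITY_DN20138_c0_g1, at 5.07, 5.003 and 5.73 FPKM in T2 line, while all T2Plus samples listed it at 0. The MYB related unigene also stands under response to light intensity, where 13 of 17 unigenes were measured, 10 down-regulated, 1 up-regulated and 2 not called. Over all unigenes 6.30% were down-regulated and 7.22% up-regulated. This list too was drawn from unigenes called on these samples, so its count is not independent evidence. Its largest rise was in TRINITY_DN689_c0_g2, from 98.7 ± 22.05 to 346 ± 45.1 FPKM (SD, n = 3). Its largest fall was in TRINITY_DN73303_c0_g1, at 5.47, 7.92 and 7.59 FPKM in T2 line and at 0 in all T2Plus samples.

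Of 19 other transcription factor unigenes that the paper names, 13 were in the table. The WRKY unigenes, regulators of defence genes, had log2 fold changes of -3.33 to -0.61, with 5 of 6 down-regulated, while those of the MYB unigenes lay between -1.55 and -1.09. The ERF unigenes, which act in ethylene responses, went both ways, with 3 down-regulated and 2 up-regulated. So did the 2 bHLH unigenes in the table, with log2 fold changes of -1.25 and 2.63. Of the 13, 9 were down-regulated, 3 were up-regulated and 1 was not called. All of these were selected on the same contrast, and the difference between families was not tested.

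The 4 MYB unigenes had like patterns over the 6 samples. Pearson's r of each with the mean of the other 3, each set to mean 0 and an SD of 1, was 0.928 to 0.982, lowest for the MYB related unigene. These coefficients are given as a description, since the samples fall into the lines and the difference between them sets most of the value. Most like the mean of the 4 were TRINITY_DN1181_c0_g1, TRINITY_DN4156_c0_g1 and TRINITY_DN12517_c0_g1, each with r = 0.999, and 1503 unigenes reached 0.95. TRINITY_DN1181_c0_g1 averaged 123 FPKM in T2 line against 79.7 FPKM in T2Plus line, so that a like pattern did not need a like fold change. Among the 218 measured unigenes with a Swiss-Prot name in the part of the annotation held here, the nearest were the lectin-domain receptor kinase IX-1 (TRINITY_DN48121_c0_g1, r = 0.997), the aromatic aminotransferase ISS1 (TRINITY_DN7902_c0_g1, r = 0.996) and the chloroplast NAD kinase 2 (TRINITY_DN12657_c0_g1, r = 0.992).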

How the data were processed

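The authors trimmed the reads with Trimmomatic 0.36, examined them with FastQC 0.11.5 and built a de novo assembly in Trinity (k-mer 25). The authors deposited FPKM per isoform and sample, which RSEM estimated and TMM factors scaled. The aligner and the versions of Trinity and RSEM were not given in the sources used here, and the values do not settle whether FPKM or TPM of RSEM was taken. The table holds 65535 isoforms, a part of the assembly. Of the paper's annotation table only a shortened copy was used, so lists drawn from it are incomplete.

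The isoforms of a unigene were added up. A total of 28536 unigenes reached 1 FPKM in 3 or more of 6 samples and were compared on the log2(FPKM + 1) scale in limma 3.58.1 (R 4.3.3), with an intensity trend and Benjamini-Hochberg adjustment over all of them. This scale understates changes of weakly expressed unigenes. The fit was tested on simulated data. The ratio within the DN2319_c0 pair and the isoform share were compared by exact permutation tests. The ratios in the clusters of the MYB related and MYB78 unigenes were not tested. Plots and summaries used Python 3.11.15 and matplotlib 3.10.9.

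The unigenes named are the 4 chosen ones, others of the same DN number, the Myb domain list, the largest rise and fall of each enrichment list, and the 3 nearest patterns overall and among named unigenes. The unigenes, lists and tests were chosen with earlier results of these data known. Alternatives were pseudocounts of 0.1 and 0.5, no filter, a minimum mean of 5 FPKM, only the highest isoform, 3 other scalings, no trend, the replicate number as a block, the adjusted p alone and each sample left out.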

Additional observations from a re-analysis of the deposited data

How the results depend on the processing

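The 4 MYB unigenes were lower in T2Plus line under every alternative run, and 59 of 60 of their log2 fold changes moved by less than 1 SD between samples. Most of these could not have moved further, so the count is no measure of stability. The filters and the replicate block leave a log2 fold change unchanged, and leaving out 1 of 3 samples cannot move it by 1 SD. All 4 MYB unigenes were down-regulated with each sample left out and with the replicate block, and 3 with a common sum or quantile normalization. Of 268 values for the 17 other named unigenes, 265 kept direction and call. The exceptions were TRINITY_DN2319_c4_g1, whose log2 fold change of -0.87 ranged from -2.28 to 0.0913 with single samples left out (0.06 without replicate 2 of T2 line, 0.0913 without replicate 1 of T2Plus line), and TRINITY_DN11444_c0_g1, which ranged from -0.28 to 0.0331 (0.0331 without replicate 2 of T2 line).

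The difference between the lines in the log2 ratio of the DN2319_c0 pair, -0.05, ranged from -0.13 to 0.0178 with a sample left out (0.0178 without replicate 3 of T2Plus line), and was -0.29 when only the highest isoform was counted (exact permutation test, p = 0.2). With a sample left out, the difference in the share of isoform i4 ranged from -14.35 to -11.23 percentage points. With the adjusted p alone, 1 Myb domain unigene, TRINITY_DN4810_c0_g1, was up-regulated. Over all unigenes, 1799 were down-regulated and 2061 up-regulated. These counts were 1142 and 1073 with no filter on low values, 1050 and 753 under a minimum mean of 5 FPKM, and 1146 and 1169 with the replicate block. The cause was not tested, except that a minimum mean leaves fewer unigenes to test. Deviations from the line means correlated at 0.04, -0.03 and -0.07 for equal replicate numbers and at -0.08 to 0.11 for unequal numbers. Equal numbers thus showed no closer likeness, but whether they shared a batch was not tested.

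The deposited values hold no read counts, so their counting error was not computed, and with 3 samples per line the exact tests cannot fall below 0.1.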
